A study of Mus musculus with 503 samples.

Results

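Fibroblasts of the GLAST lineage were examined in single perivascular cells of the mouse spinal cord, before injury and at 3 days after a complete crush. Members were selected on their own measured values: among sorted tdTomato+EGFP+ cells with at least 20000 counts, those with *Col1a1* at 200 CPM or more and *Kcnj8* under 100 CPM, where CPM is a cell's counts of a gene per 1000000 of its counts. *Col1a1* encodes a chain of type I collagen, and *Kcnj8* encodes a potassium channel subunit of pericytes. This gate held 111 of the 503 cells of the series, 21 uninjured and 90 from 3 days. Every sample is labelled female. The study's methods took only females for crush injuries, while its reporting summary names both sexes for sequencing. All cells came from GLAST-CreERT2;R26R-tdTomato;Pdgfrb-eGFP mice given tamoxifen. Cre under *Slc1a3* (GLAST) control then switches on tdTomato permanently, so tdTomato marks cells that used the GLAST promoter at the time of tamoxifen and their descendants, while EGFP marks cells with *Pdgfrb* promoter activity. Injured cells came from the crushed segment and control cells from uninjured cord, with the outer meninges removed, and single cells were sorted into plates and sequenced by the full-length method Smart-seq3. The sample labels give 3 days for the injured cells, the series text gives 5 days, and the labels were followed. The age of the mice is not in the labels.

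Fibroblasts of the central nervous system lie in the sheath around larger vessels and in the meninges, between the vessel wall and the basement membrane laid down by astrocytes. They make collagens, laminins and small leucine-rich proteoglycans, carry transporters for solutes and lipids, and are coupled to their neighbours by gap junctions. After a crush, the study reports, GLAST-expressing perivascular cells leave the vessel wall, divide and deposit a collagen-rich scar in the lesion core.

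Of 145 uninjured tdTomato+EGFP+ cells with the minimum of counts, 21 lay inside the gate, which is 14.5% with an exact (Clopper-Pearson) 95% binomial interval of 9.19% to 21.3%. At 3 days it was 90 of 100 cells, or 90% (82.4% to 95.1%). By plate the share was 12.3% on plate 209 and 16.7% on plate 213, both uninjured, against 88.5% on plate 211 and 100% (13 of 13 cells) on plate 215, both injured. Because the gated share itself rose, a response of the fibroblasts present before injury and the arrival in the gate of cells that had been below its *Col1a1* limit cannot be told apart. Most uninjured cells lay far from the limit: 93 of the 145 had no *Col1a1* count at all. Among cells that met the *Kcnj8* limit, the *Col1a1* levels nearest its own limit were 634.8 and 637.0 CPM inside it and 83.6 and 2.74 CPM outside it in uninjured cells, and 374.3 and 394.3 CPM inside and 4.11 CPM outside at 3 days. Among cells that met the *Col1a1* limit, the nearest *Kcnj8* levels were 19.5 CPM inside and 115.8 CPM outside in uninjured cells, but 99.5, 98.0 and 96.3 CPM inside and 114.8 and 134.3 CPM outside at 3 days, so the *Kcnj8* limit divided injured cells that lay close together.

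**Figure D1:**
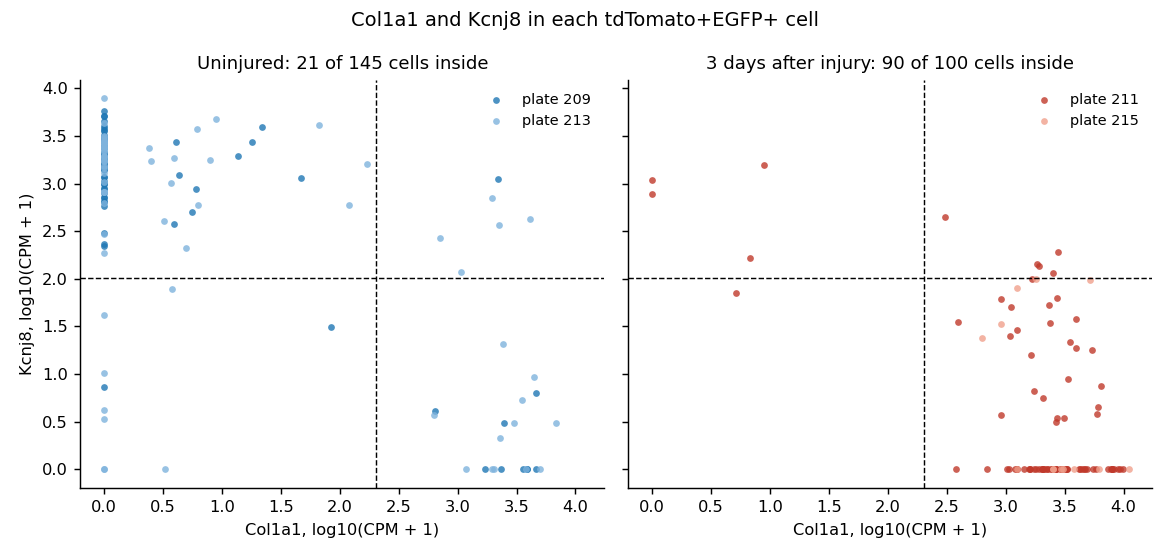
Each point is 1 tdTomato+EGFP+ cell with at least 20000 counts, placed by its *Col1a1* level (x axis) and *Kcnj8* level (y axis), both as log10(CPM + 1). The dashed lines are the limits of the gate, whose cells lie at the lower right: 21 of 145 uninjured cells and 90 of 100 cells at 3 days.

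The gated cells held 7082502 counts in the uninjured group and 28312237 at 3 days. A gated cell held from 51359 to 870504 counts before injury (median 276885) and from 20881 to 686905 at 3 days (median 325314), and the median number of genes with a count was 6460 and 9579. No label names an animal, so each group is 1 sample and no test was made between them. Counts were summed over the gated cells of a group, and 95% Poisson intervals on these sums cover counting error only, since PCR copies are not independent molecules. Plates 209 and 213 hold the uninjured and plates 211 and 215 the injured cells, so that injury and plate cannot be told apart, and the values of the 4 plate pairs are a technical spread. Plate 211 holds 77 of the 90 injured cells.

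A gene entered at a mean of 10 CPM or more over both groups. It is said below to have risen or fallen where log2(CPM + 1) of the group sums differed by 1 or more and the sign was the same in all 4 plate pairs, whatever the size in each pair, provided that at least 20% of cells in the group with more held a count and no single cell held 50% or more of the counts there. By that rule 1381 of 9607 genes were higher at 3 days (14.4%) and 2031 were lower (21.1%). Counts of risen and fallen genes in the lists below are to be read beside these shares, and several lie near them. The median gene differed by -0.43. Scaled by TMM instead, 23.7% of genes were higher and 12.5% lower and the median gene differed by 0.08, a shift of 0.48. Calls therefore split 40.5% higher by CPM, 65.4% by TMM and 63.2% by DESeq2 size factors, and differences below are on the CPM scale and read against its median. With plate 211 left out, 1082 of the 1381 rises and 1638 of the 2031 falls were still called. Differences of log2(CPM + 1) understate the change of genes near 1 CPM. A gene near 0 CPM in 1 group could enter only through the other, so its call follows in large part from entry. Levels of different genes were not corrected for transcript length and are not compared with each other.

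**Figure D2:**
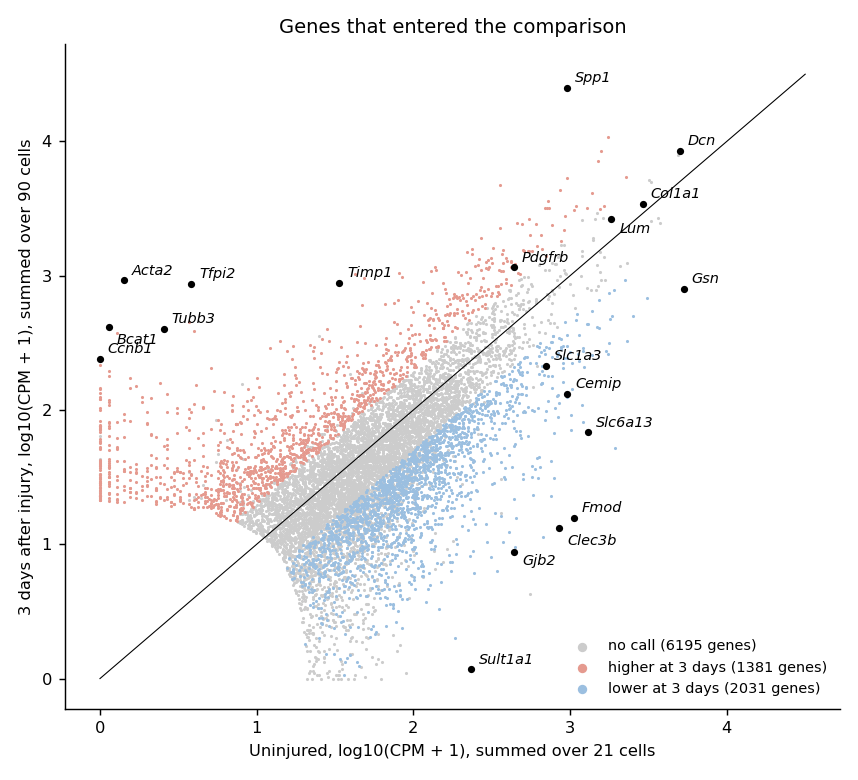
Each point is 1 of the 9607 genes that entered, by its summed level in the 21 uninjured cells (x axis) and the 90 cells at 3 days (y axis), both as log10(CPM + 1). The 1381 genes called higher are red, the 2031 called lower are blue, some named genes are black, and the line marks equal levels.

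The label was checked against genes of fibroblasts. *Lum*, the proteoglycan lumican, was at 1832 CPM in uninjured and 2621 CPM in injured gated cells, against 84.8 CPM in uninjured tdTomato+EGFP+ cells outside the gate. At 3 days 5 cells outside the gate met its *Col1a1* limit, so this contrast is for uninjured cells only. Per cell *Lum* ran from 0 to 5802 CPM before injury (median 1947) and from 0 to 11074 CPM at 3 days (median 1890), with a count in 19 of 21 and 89 of 90 cells. The groups overlapped almost fully, and *Lum* neither rose nor fell (difference 0.52, 0.09 to 0.60 over plate pairs). *Dcn*, the collagen-binding proteoglycan decorin, had a count in every gated cell of both groups. Its median cell was at 5340 CPM before injury and 5478 CPM at 3 days, while its range widened from 2607 to 26772 CPM to a range of 136 to 48842 CPM. The plate pairs for *Dcn* ran from -0.39 to 0.83, so that no direction was called by CPM. *Col1a1*, which the gate used, was at 2919 and 3438 CPM.

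*Lama1* and *Cemip* behaved differently. *Lama1*, a laminin chain of embryonic and pial basement membranes, fell from 636 CPM (95% interval 617 to 655) to 184 CPM (179 to 189), a difference of -1.78 (-2.37 to -0.91). Its uninjured cells ran from 0 to 2297 CPM with a median of 243 CPM, and its injured cells from 0 to 2381 CPM with a median of 130 CPM. *Cemip*, a protein needed for hyaluronan breakdown, fell from 961 to 132 CPM (-2.86, -3.33 to -2.31), with a count in 16 of 21 cells before and 52 of 90 cells after injury. Both genes were absent from part of the uninjured cells too, which is the subject of the next paragraph. *Pdgfrb*, whose promoter drives the EGFP of the sort, rose from 438 to 1151 CPM (1.39, 1.33 to 1.51), and 48 of 90 injured cells were above the highest uninjured cell. *Pdgfra*, the receptor of platelet-derived growth factor A used as a fibroblast marker, fell from 776 to 355 CPM (-1.13, -1.44 to -0.76). By TMM the fall of *Pdgfra* was -0.63 and no longer met the rule.

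Of the 21 uninjured cells 20 carried 1 of 2 sets of genes. Of *Lama1*, *Cemip*, *Enpp1* (a pyrophosphate-making ectoenzyme), *Fmod* (fibromodulin), *Clec3b* (tetranectin) and *Edn3* (endothelin 3), 3 or more reached 100 CPM in 12 cells. Of *Enpp2* (autotaxin, which makes lysophosphatidic acid), the transcription factor *Ebf2*, *Gfra1* (the GDNF co-receptor), *Ngfr* (the p75 neurotrophin receptor), *Cd34* and *Hpca* (the calcium sensor hippocalcin), 3 or more reached 100 CPM in 8 other cells. No uninjured cell held both sets and 1 held neither. Genes of these sets were chosen after their values in these cells were seen, so the split is a description. The sets were unevenly spread over plates: 7 cells of the *Lama1* set and 1 of the *Enpp2* set lay on plate 209, against 5 and 7 on plate 213. *Lum* reached 100 CPM in 19 and *Slc6a13*, which encodes a GABA and taurine transporter, in 19 of the 21 cells, with either set.

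Few injured cells carried either set: 12 of 90 the *Lama1* set, 3 the *Enpp2* set, 0 both and 75 neither. *Fmod*, *Clec3b*, *Edn3*, *Gfra1* and *Hpca* of these sets are among the 10 largest falls at a mean of 50 CPM or more. Low numbers of injured cells with either set therefore follow in part from the choice of genes. Genes of the *Lama1* set parted ways. *Enpp1* still reached 100 CPM in 80 of 90 injured cells and *Lama1* in 50, against 13 and 11 of the 21 uninjured cells, while *Fmod* reached it in 5, *Edn3* in 6 and *Clec3b* in 2. Of the *Enpp2* set, *Enpp2* reached 100 CPM in 6 injured cells, *Cd34* in 7, *Ebf2* in 5, *Ngfr* in 4, *Gfra1* in 3 and *Hpca* in 0. Group differences of genes in either set therefore rest on part of the uninjured cells, 11 cells for *Fmod* and 6 for *Hpca* at that level, and for *Ebf2* the plate pairs ran from -7.21 to -0.10.

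**Figure D3:**
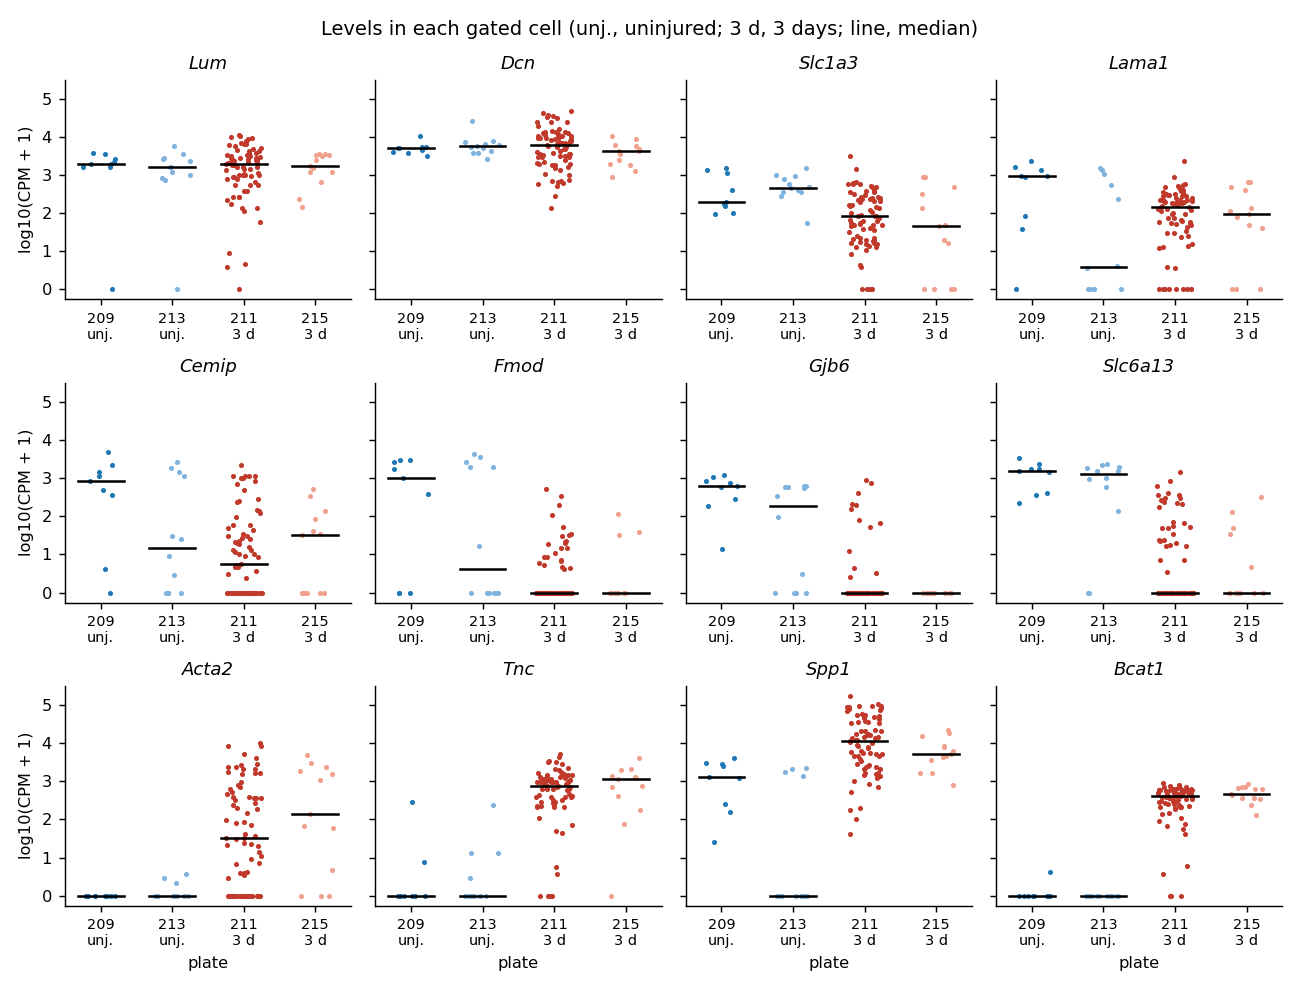
Each point is 1 gated cell, by plate (x axis) and by level as log10(CPM + 1) (y axis), with the median of each plate as a line, for 12 genes. *Lum* and *Dcn* keep their medians, *Slc1a3*, *Lama1*, *Cemip*, *Fmod*, *Gjb6* and *Slc6a13* lie lower at 3 days in the sums, and *Acta2*, *Tnc*, *Spp1* and *Bcat1* lie higher.

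Of the genes listed for fibroblast identity more fell than did not. Of the 26 listed genes 24 entered, 15 fell, 0 rose and 9 met neither rule, with a median of -1.74 (-1.82 to -1.10 over plate pairs) beside -0.43 for all genes. *Col1a1*, on which the gate selects, is among the 9. By TMM 4 rose and 13 fell. In the 17 injured cells that had no count of *Mki67* or *Top2a*, both genes of dividing cells, the median was -0.52 beside -0.41 for all genes in that setting. *Gsn*, the actin-severing protein gelsolin, fell from 5328 to 797 CPM (-2.74, -4.22 to -2.60). Its uninjured cells ran from 1898 to 38455 CPM and its injured cells from 10.3 to 23522 CPM with a median of 190 CPM, so that 85 of 90 injured cells lay below every uninjured cell. *Serping1*, the C1 inhibitor, fell from 2512 to 496 CPM (-2.34), with 77 of 90 injured cells below the uninjured range of 1237 to 4669 CPM. *Clec3b* fell from 852 to 12.3 CPM (-6.00), and 83% of its injured counts lay in 1 cell. Among type VI collagen chains, *Col6a1* fell from 1297 to 432 CPM (-1.58) and *Col6a2* from 519 to 145 CPM (-1.84). *Pi16*, a marker of adventitial fibroblasts, met the rule at 638 to 36.4 CPM, but its plate pairs ran from -5.57 to -0.40 and it lost the call by TMM.

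Small leucine-rich proteoglycans, which bind collagen fibrils and set their width, had the lowest median of the lists at -3.55 (-4.81 to -2.39), with 8 of 13 genes entered, 5 fallen and 0 risen. It was -1.86 in the 17 injured cells without a *Mki67* or *Top2a* count. *Fmod* fell from 1058 to 14.8 CPM (-6.07, -6.93 to -5.85) and *Prelp* from 759 to 41.0 CPM (-4.18, -4.80 to -4.02). Every uninjured cell held *Prelp* at 198 CPM or more, and 83 of 90 injured cells were below that. *Ogn* (osteoglycin) fell from 626 to 30.3 CPM and *Podn* (podocan) from 224 to 11.9 CPM. *Bgn* (biglycan) met neither rule at 1399 and 1841 CPM, like *Dcn* and *Lum*, so the list divided between 5 genes that fell and 3 that did not.

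Of 25 transporter and gap junction genes listed, 20 entered, 13 fell, 0 rose and 7 met neither rule, with a median of -2.84 (-3.39 to -2.39), or -1.62 in the 17 injured cells without a *Mki67* or *Top2a* count. *Slc1a3* itself, the glutamate transporter whose promoter defines the lineage, fell from 701 CPM (681 to 721) to 212 CPM (207 to 218), a difference of -1.72 (-1.93 to -0.80). All 21 uninjured cells held it, from 55.5 to 1562 CPM, and 41 of 90 injured cells were below that range although 1 was above it. *Slc6a13* fell from 1301 to 67.5 CPM (-4.25, -4.33 to -4.12), and the median injured cell had no count. The ABC transporter genes *Abca8a* and *Abca9* fell from 751 to 21.7 CPM and from 500 to 32.2 CPM. *Slc22a8*, an organic anion transporter, fell from 81.2 to 3.21 CPM (-4.29), with a count in 10 of 21 and 3 of 90 cells. Connexins did not move together: *Gjb2* fell from 441 to 7.77 CPM (-5.65) and *Gjb6* from 423 to 36.7 CPM (-3.49), its counts on plate 215 being 0, whereas *Gja1* (connexin 43) was at 448 and 624 CPM and its plate pairs ran from -0.22 to 1.71.

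*Slc22a8* and the amino acid transporter gene *Slc6a20a* are also genes of other cells of this sort, at 642 and 653 CPM in uninjured tdTomato+EGFP+ cells outside the gate. Markers of other cells were looked at in the gated wells as well. *Rgs5*, a gene high in pericytes, at 3881 CPM outside the gate, was at 8.33 CPM in uninjured and 0.389 CPM in injured gated cells. *Cldn5*, the endothelial tight junction gene at 2068 CPM outside the gate, was at 12.8 and 0.494 CPM. Both markers were higher in the uninjured wells. The 12 listed endothelial markers together were at 238 CPM in uninjured and 255 CPM in injured gated cells. By CPM 0 of them were called, and by TMM 2 were higher. The 10 listed pericyte markers together, mostly *Vtn*, were at 1263 and 257 CPM. The part of other cells' RNA in the falls was not tested.

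Basement membrane genes fell, with 10 of 17 entered genes lower, 0 higher and a median of -1.75 (medians of -1.67 to -0.91 over plate pairs), which was -0.88 in the 17 injured cells without a *Mki67* or *Top2a* count. *Lama2*, the laminin chain of perivascular fibroblasts, fell from 695 to 83.3 CPM (-3.05, -3.57 to -2.78) and *Lamb2* from 845 to 111 CPM (-2.92). *Col15a1* fell from 840 to 128 CPM and *Hspg2* (perlecan) from 680 to 182 CPM. *Col4a1*, a chain of the main basement membrane collagen, was instead at 401 and 668 CPM, 0.73 by CPM with no call and 1.23 by TMM, where it was called higher.

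Fibrillar and associated collagens showed no common direction. Of 17 entered genes 3 rose, 6 fell and 8 met neither rule, and the median was -0.24 by CPM but above 0 by TMM (0.25) and by DESeq2 size factors, and by TMM 7 rose and 5 fell. The rises by CPM were near the 14.4% of all genes. *Col1a1*, on which the gate selects, is among the 8. *Col3a1* was at 3291 and 4948 CPM (0.59) and *Col1a2* at 3266 and 2545 CPM (-0.36), neither called. *Col7a1*, the anchoring fibril collagen, rose from 2 counts in 1 uninjured cell to a count in 74 of 90 injured cells at 60.4 CPM, 214 times the uninjured level with a counting interval of 59.1 to 1766.5. *Col14a1* rose from 1.98 to 22.8 CPM. *Col8a2* fell from 120 to 2.72 CPM and *Col16a1* from 97.3 to 17.7 CPM.

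Of 26 entered genes that process and crosslink collagen 8 rose and 6 fell by CPM, with a median of 0.05. The falls by CPM were near the 21.1% of all genes. By TMM and by DESeq2 size factors 11 rose and 3 fell, with medians of 0.54 and 0.49. *Serpinh1*, the collagen chaperone HSP47, rose from 2264 to 5464 CPM (1.27, 0.88 to 1.30). *Loxl2* and *Lox*, which crosslink collagen, rose from 74.7 to 620 CPM and from 77 to 306 CPM, and *Bmp1*, the procollagen C-proteinase, from 47.9 to 191 CPM. *Adamts2*, the procollagen N-proteinase, fell from 290 to 64.3 CPM, while its relative *Adamts14* rose from 10.9 to 46.6 CPM.

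Matricellular proteins, which are laid down in wounds and modulate adhesion, rose more often than they fell. Of 25 entered genes 10 rose and 5 fell, with a median of 0.71 (0.26 to 0.80) that was 0.39 without plate 211, and by TMM 13 rose and 5 fell. *Spp1* (osteopontin) rose from 952 to 25056 CPM (4.72, 1.88 to 5.48). Injured cells ran from 39.9 to 175878 CPM with a median of 8769 CPM, and 63 of 90 lay above the uninjured range of 0 to 3999 CPM. *Spp1* made up 2.62% of gated counts on plate 211 and 0.602% on plate 215. *Tnc* (tenascin C) rose from 41.7 to 1031 CPM (4.60, 4.4 to 5.57), above the uninjured range in 68 of 90 cells. *Ccn4*, a secreted protein of the CCN family, had no count in any uninjured cell and a count in 81 of 90 injured cells at 215 CPM, at least 507-fold higher against a floor of 3 counts over the uninjured group. *Thbs1* (thrombospondin 1) and *Cthrc1* rose from 25.3 to 339 CPM and from 45.9 to 599 CPM. *Sparcl1* and *Mfap4* fell, from 2295 to 326 CPM and from 617 to 42.8 CPM.

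Among proteases and inhibitors 6 of 27 entered genes rose and 8 fell by CPM, while 9 rose and 4 fell by TMM and by DESeq2 size factors. *Timp1*, an inhibitor of matrix metalloproteinases, rose from 32.8 CPM (28.7 to 37.3) to 888 CPM (877 to 899), a difference of 4.72 (4.25 to 6.69). Uninjured cells ran from 0 to 152 CPM and injured cells from 136 to 4171 CPM and 89 of 90 injured cells were above every uninjured cell. *Tfpi2*, a serine protease inhibitor, rose from 2.82 to 870 CPM (7.83, 7.15 to 9.78). Urokinase and its receptor rose too, *Plau* from 0.565 to 33.7 CPM and *Plaur* from 14.7 to 275 CPM. *Plat* and *Serpinf1* met neither rule. In the hyaluronan list, 5 of 11 entered genes rose and 2 fell. The synthase genes *Has1* and *Has2* rose to 63.0 and 98.3 CPM from 1 and 42 counts, the first being 446 times the uninjured level with a counting interval of 80.0 to 17627. The receptor *Cd44* rose from 31.9 to 204 CPM, and the breakdown genes *Cemip* and *Hyal1* fell, the latter from 238 to 14.4 CPM.

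Contractile and adhesion genes rose, 15 of 24 entered with 0 fallen and a median of 1.35 (1.07 to 1.48). *Acta2*, smooth muscle actin and a marker of myofibroblasts, had the largest difference of the genes that rose (9.34, 9.10 to 10.23). It held 3 counts in 3 uninjured cells and reached 920 CPM at 3 days, with injured cells from 0 to 10502 CPM and a median of 49.7 CPM. The ratio of the levels was 2172 with a counting interval of 743 to 10532. A count was present in 66 of 90 injured cells, so *Acta2* was far from uniform. *Tagln*, an actin-binding protein of smooth muscle, rose from 11.2 to 291 CPM (4.58), although 96% of its uninjured counts lay in 1 cell, *Tpm1* from 218 to 1505 CPM (2.78) and *Myh9*, the non-muscle myosin heavy chain, from 95.9 to 427 CPM (2.14, 2.11 to 2.29). *Tpm4* rose from 606 to 2424 CPM (2.00) in a more even way, above every uninjured cell in 70 of 90 injured cells. *Mylk*, the smooth muscle myosin kinase, met neither rule (90.4 and 46.5 CPM).

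Of the 27 program lists those of the cell cycle had the highest medians. All 30 of the listed G2/M genes entered and all 30 rose, with a median of 5.96 (5.88 to 6.17), or 6.47 with the 12 genes that had no uninjured count placed at their lower bound. Summed over the list, the level was 86.6 CPM before injury and 3825 CPM at 3 days. Listed genes near 0 CPM before injury entered only through the injured group, so that they rose is not a separate result. Of 27 entered S phase genes 22 rose and 0 fell (median 3.02, 2.74 to 4.12). *Ccnb1*, the cyclin that drives entry into mitosis, was at 0 counts in all 21 uninjured cells and at 240 CPM (235 to 246) in the injured group, at least 568-fold higher. Injured cells ran from 0 to 1306 CPM with a median of 93.0 CPM, and 69 of 90 had a count. *Ube2c*, the ubiquitin carrier of the anaphase-promoting complex, was likewise at 0 and at 146 CPM, at least 344-fold higher, and *Tpx2* and *Aurka*, of the mitotic spindle, at least 335-fold and 295-fold higher. *Cdk1*, the mitotic kinase, and *Plk1*, the polo-like kinase, rested on 1 uninjured count each and reached 179 and 195 CPM, in 73 and 63 of 90 cells. *Rrm2*, which makes deoxynucleotides in S phase, rose from 2 counts in 1 uninjured cell to 374 CPM in 75 of 90 cells.

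A count of *Mki67* or *Top2a*, both genes of dividing cells, was present in 0 of 21 uninjured cells after each cell was thinned to 20000 counts, which allows a share of up to 14.3%, and in 61 of 90 injured cells (67.8%, 57.1% to 77.2%). On plate 211 it was 56 of 77 and on plate 215 it was 5 of 13 injured cells. At full depth the counts were 4 of 21 and 73 of 90 cells, and among thinned tdTomato+EGFP+ cells outside the gate 5 of 124 uninjured cells had such a count. In the 17 injured cells with no *Mki67* or *Top2a* count at full depth, set against the 21 uninjured cells, the G2/M median was 0.73 and the S phase median 0.55. Both genes are members of the G2/M list, so its low median there follows in part from the choice of cells. The 4 uninjured cells with such a count were kept. At full depth such a count was held by 66 of 77 injured cells on plate 211 and 7 of 13 on plate 215. Gated cells had a median of 335026 counts on plate 211 and 52479 on plate 215, and the part of depth in this was not tested.

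The promoters of 4 of these G2/M genes are shown because the whole list moved together and G2/M promoters are known for repeated CCAAT boxes. Sequences are from RefSeq on GRCm38.p6, the 250 bases before the start site, 5′ to 3′ on the gene's strand, and capitals mark CCAAT on either strand (CCAAT or ATTGG). *Ccnb1* lies at chr13:100786487-100786736 (minus strand), *Plk1* at chr7:122159185-122159434 (plus strand), *Cdk1* at chr10:69352913-69353162 (minus strand) and *Ube2c* at chr2:164769679-164769928 (plus strand).
Ccnb1: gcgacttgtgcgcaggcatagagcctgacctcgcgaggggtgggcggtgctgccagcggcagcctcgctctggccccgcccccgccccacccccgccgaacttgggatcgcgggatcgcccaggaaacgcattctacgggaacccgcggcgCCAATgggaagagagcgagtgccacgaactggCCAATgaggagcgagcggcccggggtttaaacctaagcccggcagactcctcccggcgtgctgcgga
Plk1: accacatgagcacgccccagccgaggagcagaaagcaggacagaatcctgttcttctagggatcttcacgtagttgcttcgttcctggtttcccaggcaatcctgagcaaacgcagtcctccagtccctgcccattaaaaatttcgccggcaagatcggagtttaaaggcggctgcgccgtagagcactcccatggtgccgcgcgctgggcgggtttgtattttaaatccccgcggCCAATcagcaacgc
Cdk1: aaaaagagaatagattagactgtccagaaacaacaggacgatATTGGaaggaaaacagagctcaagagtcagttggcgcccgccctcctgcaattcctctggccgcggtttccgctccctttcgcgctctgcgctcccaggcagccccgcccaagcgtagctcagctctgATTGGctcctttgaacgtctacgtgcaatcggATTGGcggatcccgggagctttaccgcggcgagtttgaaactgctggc
Ube2c: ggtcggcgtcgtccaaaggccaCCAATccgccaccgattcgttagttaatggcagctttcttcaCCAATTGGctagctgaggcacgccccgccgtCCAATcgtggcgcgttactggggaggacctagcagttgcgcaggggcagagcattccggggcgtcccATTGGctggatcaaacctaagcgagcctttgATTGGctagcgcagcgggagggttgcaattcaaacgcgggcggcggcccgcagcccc

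In these windows *Ccnb1* holds 2 matches, *Plk1* 1, *Cdk1* 3 and *Ube2c* 6. Of the 30 listed G2/M genes 25 matched a promoter in the table by symbol, 19 of them (76%) held at least 1 CCAAT and 13 (52%) at least 2, against 34.5% and 10.5% of all 27025 promoters of the table. TTTGAA, the core of the cell cycle homology region, was searched on both strands as well, and 7 of the 25 (28%) held it against 16.3% of all promoters. For fibroblast identity genes, 15 of 26 matched and 3 (20%) held a CCAAT. At least 1 CCAAT was held by 13 of 24 matched S phase genes (54.2%), 11 of 25 contractile genes (44%) and 16 of 56 ribosomal protein genes (28.6%), and at least 2 by 25% and 28% of the S phase and contractile genes. A match of these letters is a description of the sequence and not evidence of a bound site.

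Secreted signals moved in both directions. In the TGF-beta, activin and BMP list 4 of 31 entered genes rose and 12 fell (median -1.10, or -0.44 without plate 211 and -0.49 in the 17 injured cells without a *Mki67* or *Top2a* count). The rises in this list were near the 14.4% of all genes. *Inhba*, the subunit of activin A, rose from 2.68 to 452 CPM (6.94, 5.65 to 9.52), and *Fstl1* from 926 to 2783 CPM. Latent TGF-beta binding proteins parted, *Ltbp2* rising from 7.77 to 141 CPM while *Ltbp1* fell from 414 to 116 CPM and *Ltbp4* from 371 to 9.40 CPM (-5.16, -5.33 to -5.12). The co-receptor *Tgfbr3*, the ligand *Bmp5* and the BMP target *Id1* fell, from 321 to 60.2 CPM, from 305 to 46.7 CPM and from 113 to 21.7 CPM. Of 23 entered chemokine and cytokine genes 8 rose and 6 fell (median 0.81). The monocyte attractants *Ccl2* and *Ccl7* rose from 47.7 to 965 CPM and from 83.9 to 970 CPM, and the neutrophil attractant *Cxcl1* from 98.8 to 537 CPM. *Il11* rose from 0.847 to 123 CPM and *Il6* from 1 count to 33.7 CPM. *Cxcl12* and *Cxcl16* fell, the latter from 794 to 30.4 CPM (-4.66, -4.82 to -4.22) and below every uninjured cell in 53 of 90 cells. The alarmin *Il33* was at 871 and 1701 CPM with no call by CPM and a rise by TMM.

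Complement genes fell in 6 of 12 cases and rose in 1 (median -2.10, or -0.46 in the 17 injured cells without a *Mki67* or *Top2a* count). *C1ra* fell from 170 to 36.6 CPM and *Cd55*, an inhibitor of complement on cell surfaces, from 240 to 7.98 CPM. *Masp1* rose from 1 count to 23.2 CPM, mostly on plate 211 (24.4 CPM against 2.59 CPM on plate 215). Of 11 entered IGF genes 5 fell and 0 rose, among them *Igf1* (327 to 94.3 CPM) and *Igfbp2* (76.0 to 1.62 CPM). Growth factor genes included 6 of 13 that rose, such as *Angpt2*, which loosens vessels (3.11 to 153 CPM), and *Fgf7* (17.4 to 97.9 CPM), though the *Fgf7* counts of the uninjured group lay in 1 cell. Axon guidance genes fell in 8 of 13 cases and Wnt genes in 8 of 19, and 0 of either list rose. *Ntn1* (netrin 1) fell from 147 to 20.9 CPM (-2.76, -2.98 to -2.63), *Nbl1* from 278 to 40.4 CPM, *Wnt5a* from 222 to 72.9 CPM and *Fzd1* from 97.7 to 21.5 CPM, of which *Wnt5a* lost its call by TMM.

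Retinoid, prostaglandin and lipid genes changed members. *Aldh1a1*, which makes retinoic acid, fell from 784 to 66.8 CPM (-3.53) while the related *Aldh1a2* and *Aldh1a3* rose from 78.9 to 658 CPM (3.04, 1.80 to 4.4) and from 28.1 to 323 CPM (3.48). *Ptgs2* (cyclooxygenase 2) rose from 20.8 to 301 CPM. *Apoe* fell from 1199 to 275 CPM, and for *Apod*, apolipoprotein D, sums and single cells went apart. Its sum was 4900 CPM before and 7904 CPM after injury, with no call, while its median cell was at 4848 and 116 CPM, with 69 of 90 injured cells below and 9 above the uninjured range. In all 3 of 22 entered genes of the list rose and 7 fell, beside 14.4% and 21.1% of all genes. The rises were thus near the share of all genes.

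Glycolytic genes rose in 8 of 22 cases and fell in 3. *Ldha*, which makes lactate, rose from 687 to 3173 CPM (2.21, 1.66 to 2.41), *Pkm* from 543 to 2639 CPM, *Gapdh* from 237 to 1574 CPM and *Eno1* from 138 to 1110 CPM (3.00). Between 75 and 82 of 90 injured cells were above every uninjured cell for these genes. *Slc16a3*, the lactate exporter, rose from 2.12 to 93.2 CPM. In the serine, one-carbon and amino acid list 9 of 20 rose and 1 fell. *Bcat1*, the cytosolic branched-chain aminotransferase, was the clearest: 1 count in 1 of 21 uninjured cells against a count in 87 of 90 injured cells and 416 CPM (409 to 424), above the highest uninjured cell in 86. *Shmt1* went from 0 counts to 22 CPM, at least 51.9-fold higher.

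Of the iron and oxidative stress genes 6 of 20 rose and 3 fell, beside 14.4% and 21.1% of all genes. The list median of -0.31 was above 0 by TMM and by DESeq2 size factors. Both ferritin chains rose, *Ftl1* from 719 to 3619 CPM (2.33) and *Fth1* from 1386 to 4120 CPM (1.57), with *Hmox1*, which degrades heme, from 15.8 to 238 CPM and the transferrin receptor *Tfrc* from 0.706 to 33.6 CPM. *Trf* (transferrin) fell from 1862 to 499 CPM. On plate 215 both ferritin chains were lower than on plate 211, *Ftl1* at 1304 CPM against 3753 CPM. Of the ribosomal protein genes most rose, 73 of 76 with 0 fallen (median 1.74, 1.30 to 2.17), and their share of gated counts was 1.52% and 2.19% on the uninjured plates against 6.82% and 5.28% on the injured plates. Ribosomal protein genes, *Gapdh*, both ferritin chains and the MHC class I genes have near-identical copies in the genome, and how reads were shared between copies is not known, so their single values are uncertain.

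Genes of interferon response and antigen display fell in 11 of 24 cases and rose in 1 (median -1.32, or -0.56 in the 17 injured cells without a *Mki67* or *Top2a* count). The MHC class I genes *H2-K1* and *H2-D1* fell from 804 to 103 CPM (-2.95, -3.27 to -2.06) and from 1140 to 231 CPM (-2.30), while *Ifitm1* rose from 74.7 to 449 CPM. Immediate early genes, which are induced within minutes of tissue handling as well as by growth signals, fell in 12 of 22 cases. *Jun* went from 903 to 204 CPM, *Egr1* from 1129 to 262 CPM and *Klf2* from 101 to 3.67 CPM, whereas *Fos* met neither rule (2303 and 1243 CPM). Their summed level per thinned cell had a median of 6450 CPM on plate 209, 13525 CPM on plate 213, 3700 CPM on plate 211 and 4150 CPM on plate 215, so the uninjured plates differed more from each other than the injured plates did. Of 24 entered lineage transcription factor genes 4 rose and 9 fell by CPM, while 6 rose and 5 fell by TMM and by DESeq2 size factors, and the median of -1.27 was -0.64 without plate 213 and -0.27 in the 17 injured cells without a *Mki67* or *Top2a* count. The rises of lineage factors by CPM were near the 14.4% of all genes. *Runx1* and *Runx2*, factors of blood and bone lineages that are also used in fibroblast activation, rose from 1.27 to 36.2 CPM and from 3.25 to 21.3 CPM, *Osr1* and *Klf4* fell, from 58.3 to 12 CPM and from 122 to 17.7 CPM, and *Prrx1*, a fibroblast factor, met neither rule (122 and 140 CPM).

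**Figure D4:**
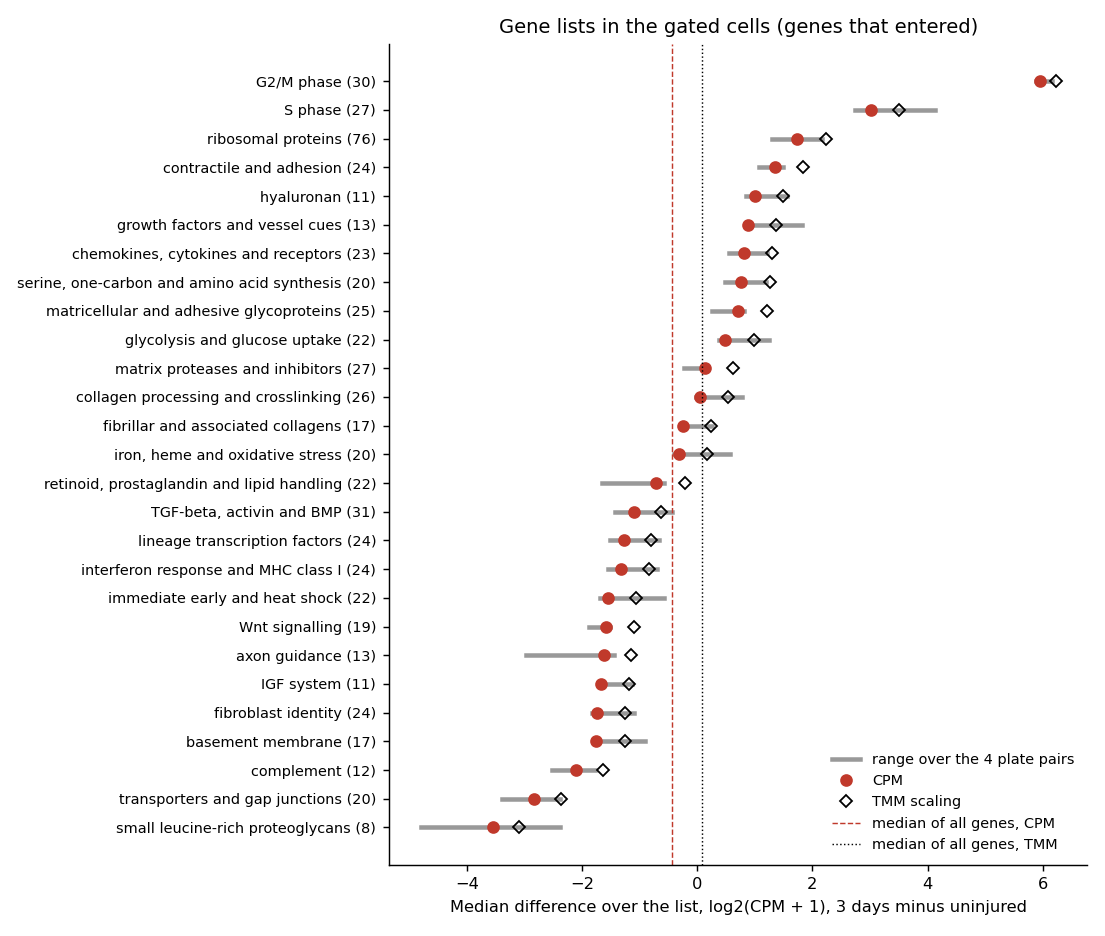
Median difference of log2(CPM + 1), 3 days minus uninjured, of each of the 27 program lists (x axis) with the number of genes that entered in brackets (y axis). Red points are CPM, diamonds TMM, bars the range over the 4 plate pairs, and lines the median of all genes: among these lists G2/M genes stand highest at 5.96 and small leucine-rich proteoglycans lowest at -3.55.

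The genes with the largest falls outside these lists included *Sult1a1*, a sulfotransferase, which went from 231 CPM in 15 of 21 cells to 5 counts in 3 of 90 cells (-7.63, -8.02 to -7.26), *Hpca* (184 to 0.989 CPM), *Cpxm2* (339 to 5.37 CPM), *Slc38a3*, a glutamine transporter (144 to 2.30 CPM), and *Wfdc1* (243 to 5.12 CPM). *Sult1a1*, *Slc38a3* and *Wfdc1* were also at 124, 485 and 548 CPM in uninjured tdTomato+EGFP+ cells outside the gate. Among the largest rises, *Tubb3*, a tubulin best known from neurons, went from 1.55 to 401 CPM (7.30, 7.0 to 8.20), with a count in 6 of 21 and 77 of 90 cells.

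The summed level of the contractile list, in cells thinned to 20000 counts, was above the highest uninjured cell in 59 of 90 injured cells (65.6%, 54.8% to 75.3%), and that of the transporter list was below the lowest uninjured cell in 65 of 90 (72.2%, 61.8% to 81.1%). Both held in 54 cells and neither in 20. Transporter sums ran from 2200 to 14950 CPM before injury (median 6250) and from 150 to 9600 CPM at 3 days (median 1250), and contractile sums from 2500 to 8150 CPM (median 4400) and from 2400 to 40850 CPM (median 10275). Over the 77 injured cells of plate 211 Spearman's rho between the sums was -0.80 thinned and -0.83 at full depth, and over the 21 uninjured cells it was -0.28. These cells share a plate, and both sums are parts of the same total per cell, so the value describes the cells and was not tested. Other lists varied as widely: fibroblast identity sums were below the uninjured range in 43 and within it in 46 of 90 injured cells, complement sums below it in 75, glycolysis sums above it in 72 and ribosomal protein sums above it in 83. Fibrillar collagen sums stayed within it in 82 cells.

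**Figure D5:**
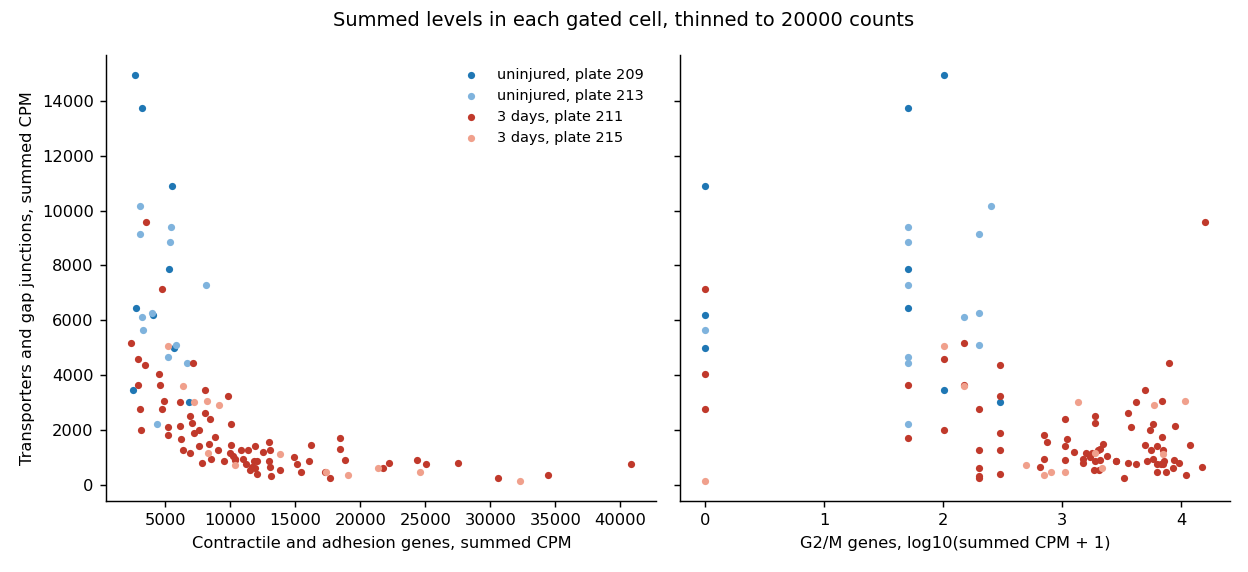
Each point is 1 gated cell thinned to 20000 counts, by the summed CPM of the transporter and gap junction list (y axis) against that of the contractile list or, as log10(CPM + 1), of the G2/M list (x axes). Uninjured cells (blue) lie between 2200 and 14950 CPM for transporters, and 65 of 90 injured cells (red) lie below them.

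Of 10 pericyte markers, which include *Kcnj8* of the gate, 5 entered, 2 fell and 0 rose. The summed level of the list was 1263 CPM before and 257 CPM after injury, mostly from *Vtn* (vitronectin, 1027 and 142 CPM), and per thinned cell it ran from 100 to 3250 CPM and from 0 to 2200 CPM. Of 12 endothelial markers 5 entered and 0 were called by CPM, against 2 called higher by TMM and by DESeq2 size factors, with sums of 238 and 255 CPM. Oligodendrocyte markers did not enter, and 1 of 11 microglia and macrophage markers did, *Csf1r*, without a call. Of 10 smooth muscle markers 4 entered and 3 rose, *Acta2*, *Tagln* and *Des* (37.0 to 82.9 CPM), and the part of smooth muscle cells in this was not tested. Of 8 astrocyte markers 4 entered and 3 fell, *Gjb6* and *S100b* (66.9 to 8.76 CPM) among them, 2 of 6 Schwann cell markers entered and fell, *Pmp22* and *Ngfr*, the only entered neuron marker was *Tubb3*, and the only entered ependymal marker was *Rarres2*, which fell from 449 to 68.6 CPM.

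The same gate in sorted tdTomato-EGFP+ cells, which carried EGFP but no tdTomato, held 8 of 100 uninjured and 28 of 104 injured cells. Uninjured tdTomato-EGFP+ cells of the gate had *Slc1a3* at 35.2 CPM, *Lama1* at 51.8 CPM, *Gjb6* at 2.93 CPM and *Slc6a13* at 181 CPM, where the tdTomato+EGFP+ cells had 701, 636, 423 and 1301 CPM. At 3 days they had *Acta2* at 1026 CPM and *Timp1* at 841 CPM beside 920 and 888 CPM, but *Spp1* at 499 CPM beside 25056 CPM and *Tfpi2* at 66.8 CPM beside 870 CPM. These are sums over few cells with no test of the difference.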

How the data were processed

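Single tdTomato+EGFP+ and tdTomato-EGFP+ cells were sorted into plates and sequenced with Smart-seq3. The authors deposited a table of counts per gene and cell, with 56701 gene rows and 92 rows of ERCC spike-in RNA. Of its 1968 cell columns, 503 matched a sample and 1465 were not used. The genome build is mm10 per the submitters' processing notes. The aligner and annotation are not given in the sources used here, nor whether the counts are reads or molecules, so strand use and the sharing of reads between gene copies are unknown. ERCC rows were left out, as were symbols with counts on plate 211 only or on every plate but 211. Cells had been sorted singly and no doublet caller was run. No 2 matched columns held the same values.

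Counts were summed per group and scaled to CPM. Differences of log2(CPM + 1) were used with the limits given in the text, and exact 95% Poisson and binomial intervals cover counting error only. Cells were thinned to 20000 counts for values per cell. TMM factors (edgeR 4.0.16) and size factors (DESeq2 1.42.0) in R 4.3.3 served as alternative scalings, with no test by either. Other steps used Python 3.11.15, numpy 2.4.6, scipy 1.17.1, pandas 2.3.3 and matplotlib 3.10.9. The comparison was also run on simulated counts with known changes in genes at 50 CPM or more. That simulation held no difference between plates, so it cannot show how the calls fare where plate and injury coincide. Other alternatives were other entry limits, gates, cell filters and pseudocounts, equal weights of plates, and leaving out each plate.

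The gated cells, 27 lists of programs and 9 of markers were chosen with earlier results of these data known. Named genes are those that define the cells, the 10 largest differences in each direction at a mean of 50 CPM or more, and in each list up to 6 called members with the largest difference and up to 4 with the highest level. Genes of the *Lama1* and *Enpp2* sets and the background markers *Rgs5* and *Cldn5* were picked after values were seen. Some genes that this rule names are not reported here.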

Additional observations from a re-analysis of the deposited data

Results flagged for a closer look

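ERCC spike-in RNA, which no comparison used, made up 0.0984% of the counts on plate 211 and was present in 146 of its 146 cells, while 0 of 130, 146 and 81 cells on plates 209, 213 and 215 had such a count. In addition 4054 symbols had counts on plate 211 only and 3720 on every plate but 211. The labels do not say what differed between the plates, in preparation or in processing. Plate 211 holds 77 of the 90 injured cells inside the gate, so a difference between plates and the injury cannot be told apart there.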

How the results depend on the processing

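No paired analysis was possible because the labels give the groups no shared replicate numbers. The 1381 genes higher and 2031 lower at 3 days became 2274 and 1203 by TMM and 2185 and 1270 by DESeq2 size factors. With entry at 1 CPM 2179 were higher, and with entry at 50 CPM 590 were higher and 1145 lower. Against the 17 injured cells without a *Mki67* or *Top2a* count 869 were higher. With no *Kcnj8* count allowed in a gated cell, 1243 were lower, and the gate held 61% of injured and 7.59% of uninjured cells. Leaving out each plate in turn gave 1431 to 1956 genes higher, 1466 to 2238 lower, 88.5% to 100% of injured cells gated and 12.3% to 16.7% of uninjured cells gated. Leaving out plate 213 gave the fewest lower genes, 1466. Leaving *Spp1* and ribosomal protein rows out of the totals, chosen after seeing the data, gave 1496 higher and 1852 lower. Over 21 alternatives, 20 for ribosomal proteins, the medians of the 27 program lists changed sign in 7 for proteases, 4 for fibrillar collagens, 4 for iron and 1 for serine synthesis, and in 0 for the other 23. Medians of the 9 marker lists were not run under them. Other medians that moved by over 1.5 times in the 17 cells were those of the IGF (-1.02), axon guidance (-1.04), growth factor (0.34) and immediate early (-0.93) lists. Those of collagen processing (0.23), fibrillar collagens (-0.05), iron (-0.08) and serine synthesis (-0.12) did so too. The collagen processing median was 0.51 without plate 211 and 0.32 without plate 213. That of fibrillar collagens was 0.11 without plate 211 and 0.25 without plate 209. Without plate 213 the immediate early median was -0.76, that of retinoid genes -1.42 and that of glycolysis 0.91, and without plate 211 those of retinoid genes, glycolysis and axon guidance were -1.50, 0.79 and -2.43. Without plate 209 the serine median was 0.51. Without the injured cells that had a *Mki67* or *Top2a* count, 6 genes changed sign: *Aldh1l1* (0.52), *Igfbp6* (0.36), *Ndufa4l2* (0.40), *Kif20a* (-0.54), *Mcm5* (-0.30) and *Psat1* (-0.20). The cause of these shifts was not tested. The limit of 1200 genes per cell was not run, since 0 gated cells would remain. With 21 uninjured cells, shares under 14.3% are not detectable when the count is 0.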
